A study of Homo sapiens with 10 samples.

Results

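The chemokines outside the neutrophil-attracting CXC group were examined in RPTEC/TERT1 cells, human proximal tubular epithelial cells kept in culture by expression of telomerase. CCL2, CCL5, CCL7, CCL20, CCL28, CX3CL1, CXCL12, CXCL14 and CXCL16 were chosen by name, as genes of the CC, CX3C and CXC families, and all 9 were found among the 61587 gene rows of the count table. Earlier results of these data were known when the genes were chosen. Bulk RNA-seq was carried out on 5 samples that had received 10 Gy of gamma irradiation and 5 mock-irradiated control samples (0 Gy), all of the same line and all collected on day 7. Both groups carry replicate numbers 1 to 5, and samples were compared in pairs by that number. The model is a single immortalised line in monoculture, with no leukocytes or stroma added. Nothing in the labels states that the replicates were separate thaws or cultures. The p-values of the paired fit therefore measure only the spread of the differences within these pairs of samples.

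Chemokines are small secreted proteins that bind to glycosaminoglycans on cell surfaces and matrix and guide leukocytes by way of G-protein-coupled receptors. CCL2 and CCL7 bind to CCR2 and attract monocytes, CCL5 binds to CCR1 and CCR3, CCL20 to CCR6 and CCL28 to CCR10 and CCR3. CX3CL1 (fractalkine) and CXCL16 are made as membrane-anchored proteins, which hold cells bearing CX3CR1 and CXCR6 in place until proteases of the ADAM family release the soluble forms. CXCL12 acts through CXCR4 and is a homeostatic factor, and CXCL14 is a chemokine expressed constitutively by many epithelia. In the kidney, CCL2 from the tubule is among the best known signals for the recruitment of monocytes after injury.

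Relative to library size, irradiated samples held less CXCL14 and CXCL12 mRNA and more CCL2, CX3CL1, CXCL16 and CCL28 mRNA. Amounts of mRNA per cell were not measured. CXCL14, which ranked 60th of all genes by mean level in control samples, fell by 3.50 on the log2 scale (SE 0.20, n = 5 pairs), which is 11.3-fold lower. CXCL12, at a far lower level, fell by 3.56 (SE 0.26). CCL28 rose 4.36-fold, CX3CL1 2.22-fold, CCL2 2.19-fold and CXCL16 1.57-fold. CCL5, CCL20 and CCL7 had too few counts for the main test (91, 52 and 2 over all 10 samples).

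Sequence upstream of the RefSeq transcription starts (250 bases, GRCh38.p14) was held for 5 of the 9 genes. CCL2, CCL5, CX3CL1 and CXCL16 were not matched. The stretches below belong to both genes that fell, to CCL28, which rose, and to CCL20, whose counts appeared mainly after irradiation. They are written 5′ to 3′ on the strand of the gene, and capitals mark matches to TATAAA, to the GC box (GGGCGG), to the AP-1 site (TGANTCA) and to a kappa-B consensus, each searched on both strands.
CXCL12, chr10:44385098-44385347, minus strand: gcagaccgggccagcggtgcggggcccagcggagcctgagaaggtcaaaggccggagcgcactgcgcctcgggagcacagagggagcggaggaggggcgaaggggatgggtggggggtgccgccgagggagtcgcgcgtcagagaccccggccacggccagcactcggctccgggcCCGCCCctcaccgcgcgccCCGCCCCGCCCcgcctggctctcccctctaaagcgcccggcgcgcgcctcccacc
CXCL14, chr5:135579065-135579094, minus strand: agaaatctcagTGAGTCAccgagtggttct
CCL28, chr5:43412392-43412641, minus strand: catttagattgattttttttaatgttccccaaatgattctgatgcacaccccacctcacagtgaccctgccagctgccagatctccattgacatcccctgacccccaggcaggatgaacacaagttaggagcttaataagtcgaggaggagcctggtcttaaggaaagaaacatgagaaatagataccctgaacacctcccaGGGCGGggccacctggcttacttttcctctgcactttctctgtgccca
CCL20, chr2:227813592-227813821, plus strand: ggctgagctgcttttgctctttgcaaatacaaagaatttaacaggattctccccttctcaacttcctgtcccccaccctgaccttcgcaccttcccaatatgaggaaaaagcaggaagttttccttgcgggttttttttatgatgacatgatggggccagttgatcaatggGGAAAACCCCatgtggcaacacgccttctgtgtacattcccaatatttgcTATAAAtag

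The CXCL12 window had a GC content of 78.0% and 31 CG dinucleotides, against a median GC content of 58.0% over 35116 promoters, and it held 3 matches to the GC box on the opposite strand, of which the last pair overlap. The CXCL14 window had a GC content of 64.4% and 25 CG dinucleotides. It lies within the first exon of a longer GENCODE transcript, so that 30 bases around its AP-1 match, at -92 to -86 from the start, are shown, and 4 GC box matches lie elsewhere in the 250 bases. The windows of CCL28 shown here and of CCL20 had a GC content of 49.2% (with 1 GC box match) and 46.8%. CCL28 has a second RefSeq start, whose window on chr5:43397138-43397387 had a GC content of 60.0% and 20 CG dinucleotides and held no match to these motifs. The CCL20 window held a kappa-B match at -79 to -70 and a TATAAA at -29 to -24, and its last bases, part of the UTR of another transcript, are left out. The window of CCL7, not shown, held an AP-1 match and a TATAAA. Over all promoters of this length, 10.0% held a kappa-B match, 6.6% an AP-1 match, 10.7% a TATAAA and 42.6% a GC box. A match is a description of the letters, and binding was not measured.

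Each sample held between 66269311 and 131555873 counts on genes, so that 3 counts, taken as the floor of detection in a library, correspond to between 0.0214 and 0.0448 CPM (counts scaled to a common library size, given here on libraries adjusted by TMM, with factors between 0.915 and 1.06). The cells were checked against markers. The epithelial keratins KRT8 and KRT18 (mean 1009 and 237 CPM in control samples), EPCAM (288), the renal transcription factor PAX8 (533) and the brush border peptidase ANPEP (247) were expressed. The tubular genes CUBN and GGT1 were at lower means of 4.37 and 10.0 CPM in control samples. The tubular genes LRP2, HNF4A and SLC34A1 had 17, 12 and 86 counts in all 10 samples together. The injury marker HAVCR1 rose after irradiation, from 26.6 ± 7.48 to 91.3 ± 24.1 CPM (SD, n = 5), and the water channel gene AQP1 fell from 1.82 ± 0.267 to 1.19 ± 0.155 CPM (adjusted p = 0.00635 by edgeR). These were the only calls among 9 tubular and epithelial markers tested, against 46.6% of all genes tested called in either direction. Control replicates 1 and 3 stood apart from the other controls in the proliferation marker MKI67, with 76.7 and 60.4 CPM against 216 to 234, while irradiated samples ran from 15.3 to 29.5. Members are therefore also given without replicates 1 and 3.

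Markers of other cell types were mostly at low levels, and some of them rose after irradiation while others did not. The summed level of 9 leukocyte markers was 0.680 to 0.953 CPM in control and 1.97 to 2.71 CPM in irradiated samples. Of these, 3 were tested and 2 were higher, CD14 (log2 fold change 1.09) and ITGAM (4.71), against 23.9% of all genes tested. Both reached the count needed for the main test only through the irradiated samples. CD14 had 151 counts in control and 247 in irradiated samples, and ITGAM had 25 and 552. The number called is therefore a description. PTPRC, the common leukocyte antigen, had a log2 fold change of 0.27 with an adjusted p of 0.283 by edgeR, and CD3E, MS4A1 and TYROBP were at 0 in all control samples, with 3, 3 and 1 counts in the irradiated group. CSF1R had 68 counts in each group, and LYZ had 35 in control and 32 in irradiated samples. The 4 endothelial markers summed to 1.28 to 2.40 CPM in control and 4.15 to 6.06 CPM in irradiated samples. Of 3 tested, PECAM1 and CDH5 were higher, against the same 23.9%. VWF was not called (log2 fold change -0.02, adjusted p = 0.965 by edgeR), and KDR had 2 counts in all. The 5 fibroblast markers summed to 15.8 to 23.4 and 28.4 to 39.9 CPM, most of it COL1A1 (means 18.8 in control and 32.1 in irradiated samples). COL1A1 and DCN, the only 2 tested, were higher, against the same 23.9%, and COL3A1 and LUM were at 0 in all control samples. DCN reached the count needed for the main test only through the irradiated samples, with 188 counts in control and 693 in irradiated samples. PDGFRB had 27 counts in control and 22 in irradiated samples. The part of these markers in the chemokine values was not tested. In bulk RNA, fewer cells of a type and less RNA per cell cannot be told apart.

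Of the 9 chemokines, 6 passed the minimum of 200 counts, and 4 of these were higher and 2 lower at an adjusted p under 0.05 by edgeR's quasi-likelihood test. Over the 19006 genes tested, 46.6% passed in either direction, 23.9% as higher and 22.7% as lower. More than 2-fold changes were called for 3 members as higher, against 5.26% of all tested genes, and for 2 as lower, against 4.06%. The median log2 fold change was 0.89 over the 6 members and -0.01 over all genes. CXCL12 and CCL28 passed the minimum only through the group in which they were high, with 634 against 45 counts and 191 against 736 counts in control and irradiated samples, so the count of members called is a description. Each of the 6 moved in the same direction in 5 of 5 pairs. The samples of the groups did not overlap for 5 of the 6, against 26.7% of the tested genes, and the exception was CCL2. The members were chosen with earlier results of these data known, so these numbers beside the shares over all genes are descriptions.

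**Figure D1:**
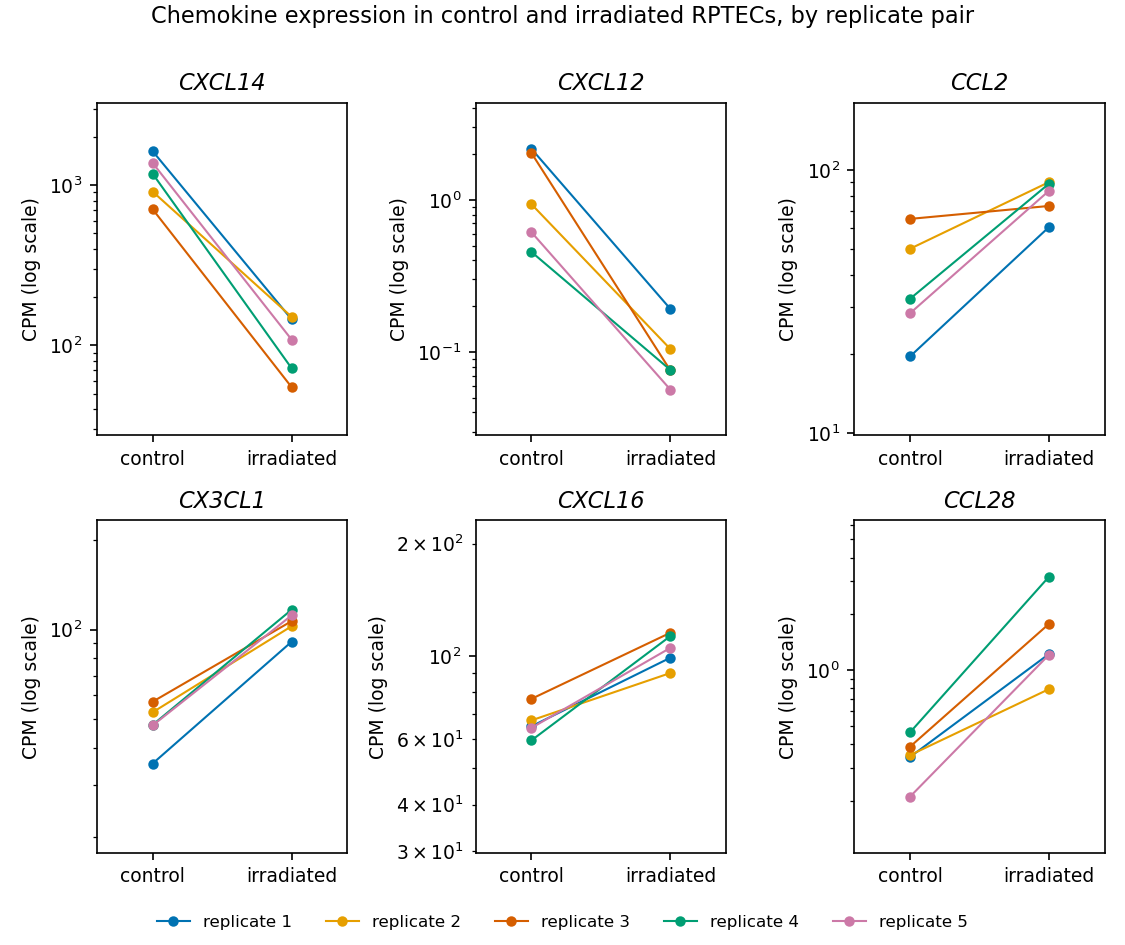
Levels of the 6 tested chemokines in CPM (log axis, scaled for each gene) in control and irradiated samples, with a point for each sample and a line joining samples of the same replicate number. All 5 lines fall for CXCL14 and CXCL12 and rise for the other 4 genes, and the line of replicate 3 is the flattest for CCL2 (65.2 to 73.1 CPM).

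CXCL14 (chr5:135570679-135579279, minus strand) was the most abundant of these chemokines in control samples. Its level in control replicates 1 to 5 was 1627, 910.0, 706, 1177 and 1373 CPM, and in irradiated replicates 1 to 5 it was 145, 150.4, 54.7, 71.8 and 108 CPM. Every irradiated sample lay below every control, and the lowest control was still several times the highest irradiated sample. Means were 1159 ± 365 and 106 ± 42.7 CPM (SD, n = 5), with a log2 fold change of -3.50 (SE 0.20, 95% interval -3.96 to -3.04, adjusted p = 2.7e-05 by edgeR). Among the 19006 genes tested it had the 16th lowest log2 fold change, and its rank by mean level went from 60 in control to 1954 in irradiated samples. The gene took between 0.0679% and 0.170% of all counts in control libraries and between 0.00501% and 0.0152% in irradiated ones. Without replicates 1 and 3 the log2 fold change was -3.45, and with each pair left out in turn it lay between -3.71 and -3.36. Exons of the opposite strand cover 5.5% of its exonic bases, where reads could not be assigned to either gene.

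CXCL12 (chr10:44370165-44386493, minus strand), the ligand of CXCR4, fell from a low level. Control replicates 1 to 5 held 2.16, 0.936, 2.03, 0.455 and 0.613 CPM, from 49 to 204 counts. Irradiated replicates 1 to 5 held 0.192, 0.104, 0.0755, 0.0761 and 0.0565 CPM, which is 5 to 19 counts and still above the floor of 3. Control replicates 1 and 3, those low in MKI67, had the highest values, and all irradiated samples were below all controls. The log2 fold change was -3.56 (SE 0.26, 95% interval -4.17 to -2.95, adjusted p = 5.8e-05 by edgeR), or 11.8-fold lower, the 15th lowest of the genes tested. Without replicates 1 and 3 it was -3.06 (SE 0.26, adjusted p = 0.000195 by edgeR). CXCL12 reached the count needed for the main test only through the control samples, with 634 counts in control and 45 in irradiated samples. The adjusted p-values and the rank of CXCL12 are therefore descriptions.

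CCL2 (chr17:34255274-34257208, plus strand), the monocyte attractant, rose in every pair but by unequal amounts. Control levels were 19.5, 50.2, 65.2, 32.4 and 28.5 CPM in replicates 1 to 5, and irradiated levels were 60.8, 90.1, 73.1, 88.9 and 83.5 CPM. The groups overlapped, because control replicate 3 lay above irradiated replicate 1. Within pairs the log2 difference ran from 0.16 in replicate 3 to 1.64 in replicate 1, and the spread of the controls (39.2 ± 18.3 CPM, SD, n = 5) was wider than that of the irradiated samples (79.3 ± 12.3). The log2 fold change was 1.13 (SE 0.21, 95% interval 0.65 to 1.62, adjusted p = 0.00349 by edgeR). It lay between 1.01 and 1.37 with each pair left out in turn, and without replicates 1 and 3 it was 1.26 (SE 0.13).

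CX3CL1 (chr16:57372477-57385044, plus strand) had the narrowest error of the members that rose more than 2-fold by the fitted value. Its level was 35.4, 52.7, 57.2, 47.8 and 47.6 CPM in control replicates 1 to 5 and 91.1, 103, 107, 117 and 112 CPM in irradiated replicates 1 to 5. The highest control was well below the lowest irradiated sample, and replicate 1 was the lowest of its group in both. The log2 fold change was 1.15 (SE 0.08, 95% interval 0.97 to 1.33, adjusted p = 4.1e-05 by edgeR), and without replicates 1 and 3 it was 1.15.

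CXCL16 (chr17:4733533-4739928, minus strand), the other membrane-anchored chemokine, which also serves as a scavenger receptor for oxidised lipoprotein, rose by a smaller amount. It was at 64.8, 67.3, 76.8, 59.4 and 64.2 CPM in control replicates 1 to 5 and at 99.0, 90.1, 115, 113 and 105 CPM in irradiated replicates 1 to 5. The groups did not overlap. The log2 fold change was 0.65 (SE 0.07, 95% interval 0.49 to 0.81, adjusted p = 0.000277 by edgeR), below the 2-fold limit with the whole interval, and it was 0.67 without replicates 1 and 3. Exons of the opposite strand cover 6.2% of its exonic bases.

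CCL28 (chr5:43376645-43412391, minus strand), known from mucosal epithelia, had the largest rise among the tested members from a level near the limit of the test. Control replicates 1 to 5 held 0.342, 0.350, 0.388, 0.464 and 0.210 CPM (25 to 50 counts), and irradiated replicates 1 to 5 held 1.22, 0.791, 1.77, 3.17 and 1.21 CPM (53 to 291 counts). Irradiated samples all lay above the controls and varied more among themselves, with replicate 4 the highest in both groups. The log2 fold change was 2.12 (SE 0.23, 95% interval 1.59 to 2.65, adjusted p = 0.000281 by edgeR), and 2.20 without replicates 1 and 3. CCL28 reached the count needed for the main test only through the irradiated samples, with 191 counts in control and 736 in irradiated samples. The adjusted p of CCL28 is therefore a description.

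**Figure D2:**
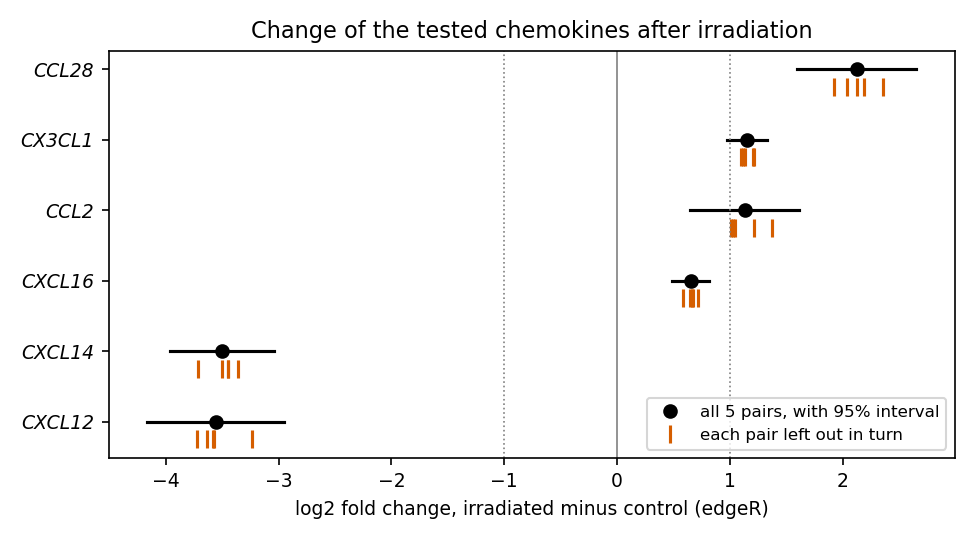
Log2 fold change (irradiated minus control, edgeR) of the 6 tested chemokines, with a black point and 95% interval for all 5 pairs, and orange ticks for the fits with each pair left out in turn. CXCL12 and CXCL14 lie near -3.5, and CCL28 lies at 2.12. The dotted lines mark 2-fold, which the interval of CXCL16 does not reach and those of CCL2 and CX3CL1 cross.

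CCL20 (chr2:227805739-227817564, plus strand), the attractant of CCR6-bearing cells, was close to absent in control samples. It had 0, 5, 1, 0 and 0 counts in control replicates 1 to 5 and 9, 3, 18, 11 and 5 counts in irradiated replicates 1 to 5. In CPM no irradiated sample (0.0448 to 0.194) overlapped the controls (0 to 0.0357). Replicate 2 came close, with 5 counts in the control and 3 in the irradiated sample, the smallest library. An exact two-sided permutation test of CPM over the 10 samples, which sets the pairing aside, gave p = 0.00794, the smallest that 5 against 5 allows. The ratio of the summed counts, 46 against 6 and scaled for depth, was 9.58 with a 95% counting interval of 4.08 to 27.5. In the same edgeR model on all 44263 genes with at least 1 count, of which 10.2% were called higher, the log2 fold change was 3.10 (SE 0.70) with an adjusted p of 0.00184, and over the alternative settings it ran from 2.44 to 4.94 with an adjusted p of 3.5e-05 to 0.038.

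CCL5 (chr17:35871491-35880793, minus strand), the attractant of T cells and monocytes, had 7, 13, 10, 8 and 8 counts in control replicates 1 to 5 and 8, 4, 14, 11 and 8 counts in irradiated replicates 1 to 5. The groups overlapped, with 3 pairs higher and 2 lower. The ratio of the summed counts was 1.22 (95% counting interval 0.792 to 1.89) and the exact unpaired permutation test gave p = 0.389, so a difference was not detectable at this depth. CCL7 (chr17:34270221-34272242, plus strand), the neighbour of CCL2 on the same strand, had 1 count each in control replicates 2 and 3 and 0 in all irradiated samples. Both groups are under the floor, and no fold change is given.

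**Figure D3:**
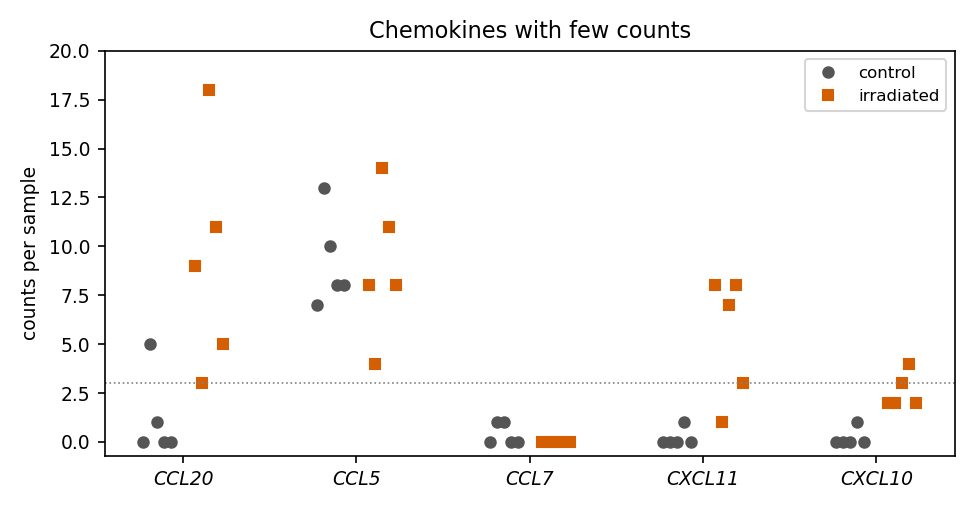
Counts per sample of the 3 members under 200 counts and of CXCL11 and CXCL10, with grey circles for control and orange squares for irradiated samples and a dotted line at the floor of 3 counts. CCL20, CXCL11 and CXCL10 have at most 5, 1 and 1 counts in any control sample, and CCL5 lies between 4 and 14 counts in both groups.

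Levels were compared between genes as CPM per kilobase of the MANE Select transcript. In control samples CXCL14 stood first with 687 ± 216 (SD, n = 5), followed by CCL2 with 52.9 ± 24.7, CXCL16 with 28.6 ± 2.76 and CX3CL1 with 14.6 ± 2.48 CPM per kb. CXCL12 (0.643), CCL28 (0.112), CCL5 (0.0646), CCL20 (0.0110) and CCL7 (0.00422) followed far below. The ranges over samples overlapped between CCL2 and CXCL16, between CCL28 and CCL5 and between CCL20 and CCL7, and not between the other neighbours. After irradiation CCL2 stood first with 107 ± 16.6 and CXCL14 second with 62.9 ± 25.3, ahead of CXCL16 (45.0 ± 4.48) and CX3CL1 (32.2 ± 2.98). The ranges of CCL2 and CXCL14, and those of CXCL14 and CXCL16, overlapped, so the order of these neighbours is within their spread. CCL28 (0.522), CCL20 (0.121), CCL5 (0.0772), CXCL12 (0.0523) and CCL7 (0) came last, and CCL20 overlapped CCL5 and CCL5 overlapped CXCL12.

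CXCL14 thus made up 75.0% to 93.6% (median 89.2%) of the summed level per kb of the 9 chemokines in control samples and 15.1% to 36.0% (median 25.0%) in irradiated samples. CCL2 went from 2.56% to 15.8% (median 5.59%) up to 34.3% to 48.4% (median 43.9%), CXCL16 from a median of 3.27% to 17.8% and CX3CL1 from 1.86% to 13.3%. The summed level was 558 to 1031 CPM per kb in control and 214 to 281 in irradiated samples. With CXCL14 left out of the sum the order of the groups turned round, with 66.3 to 139.7 in control and 153 to 205 CPM per kb in irradiated samples. These shares are descriptions, since each share depends on every other member.

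**Figure D4:**
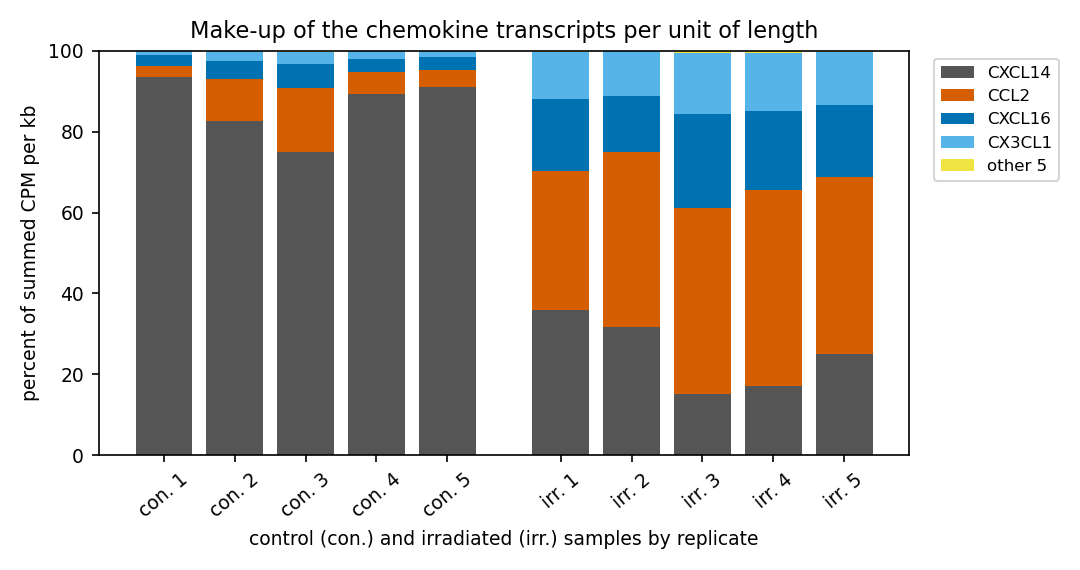
Make-up of the summed chemokine level in each sample, as a percent of CPM per kb, with control (con.) samples on the left and irradiated (irr.) samples on the right. The grey CXCL14 part fills 75.0% to 93.6% of the control bars and 15.1% to 36.0% of the irradiated bars, where CCL2 (orange) fills 34.3% to 48.4%.

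The genes with the most similar profiles were found for the 5 members that changed more than 2-fold, as the smallest root mean square difference of centred log2 CPM over the 10 samples among 14282 genes. CX3CL1 had the closest matches, CSF1 (0.101), which encodes the macrophage colony-stimulating factor, the TRAIL receptor TNFRSF10A (0.108) and TNFAIP8 (0.122). For CCL2 they were SERPINA1 (0.201), which encodes alpha-1-antitrypsin, the leukocyte adhesion molecule ICAM1 (0.240) and IL18R1 (0.254). CCL28 was nearest to the mucin gene MUC16 (0.318), the laminin chain gene LAMB3 (0.367) and the urokinase receptor gene PLAUR (0.381). The genes that fell had looser matches, with FOXJ1 (0.454), a regulator of motile cilia, SNAI1 (0.468) and the carnitine synthesis gene BBOX1 (0.474) for CXCL14, and KCNK15 (0.492), GABRP (0.497) and FGFR3 (0.527) for CXCL12. Each profile includes the difference between the groups, so genes with a like change come out as near.

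Of 28 other chemokine genes outside the neutrophil group, none reached 200 counts and 12 were at 0 in every sample. XCL1 was the highest with 32 counts in all. CXCL11 and CXCL10, interferon-inducible ligands of CXCR3, were seen almost only after irradiation. CXCL11 had 1 count in the control samples together and 8, 1, 7, 8 and 3 counts in irradiated replicates 1 to 5, a ratio of 33.7 with a 95% counting interval of 5.56 to 1382, and an adjusted p of 0.0024 by edgeR on genes with at least 1 count, which was 0.0915 without replicates 1 and 3. CXCL10 had 1 count against 2, 2, 3, 4 and 2 counts, a ratio of 16.2 (2.44 to 690.5), and its adjusted p of 0.0548 by edgeR did not pass, although it was 0.0112 without the replicate block and 0.00125 by limma-voom.

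Among 16 chemokine receptors 3 were tested, and 1 was higher, against 23.9% of all genes tested. CXCR4 (chr2:136114349-136119177, minus strand), the receptor for CXCL12, rose while its ligand fell. It was at 0.758, 0.979, 2.88, 0.724 and 0.780 CPM in control replicates 1 to 5 and at 6.72, 3.15, 16.9, 5.62 and 3.86 CPM in irradiated replicates 1 to 5. Replicate 3 was far above the others in both groups. The groups did not overlap, since even control replicate 3 lay just under irradiated replicate 2, the lowest of its group. The log2 fold change was 2.52 (SE 0.20, adjusted p = 8.2e-05 by edgeR), or 5.74-fold, and 2.29 without replicates 1 and 3.

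Receptors for the other members were low. CCR10, which binds to CCL28, was at 1.42 to 3.62 CPM in control and 1.81 to 3.09 CPM in irradiated samples (log2 fold change 0.24, 95% interval -0.04 to 0.53, adjusted p = 0.139 by edgeR), and 34.4% of its exonic bases lie under exons of the opposite strand. CXCR6, the receptor for CXCL16, was at 0.239 to 0.379 and 0.237 to 0.395 CPM (log2 fold change 0.01, 95% interval -0.33 to 0.35, adjusted p = 0.958 by edgeR). CCR2, CCR6 and CX3CR1, the receptors for CCL2, CCL20 and CX3CL1, had 4, 1 and 21 counts in all 10 samples. CCR1, a receptor for CCL5, had 34, 5, 32, 2 and 14 counts in control replicates 1 to 5 and 1, 0, 2, 0 and 0 in irradiated ones, a ratio of 0.0431 with a 95% counting interval of 0.00872 to 0.130. Its highest values were those of control replicates 1 and 3. CCR3, with 177 counts, had a log2 fold change of -1.16 on genes with at least 1 count (adjusted p = 0.0086 by edgeR), and the adjusted p was 0.224 without replicate 1, where it was highest.

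Among 5 atypical receptors, which bind to chemokines without classical signalling, ACKR2 was the only tested gene. ACKR2, a scavenger of CCL2, CCL5 and CCL7, fell from 1.72 ± 0.620 to 0.811 ± 0.171 CPM (SD, n = 5), with a log2 fold change of -1.04 (SE 0.16) and an adjusted p of 0.00155 by edgeR, and 25.2% of its exonic bases are shared with other genes. ACKR3, the second receptor for CXCL12, had 4 counts in all.

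Enzymes that act on these chemokines were abundant. DPP4, a membrane peptidase that trims the amino terminus of CXCL12 and other chemokines, rose 2.12-fold, from 280.3 to 383 CPM in control samples to 554 to 999 CPM in irradiated samples (log2 fold change 1.09, SE 0.08, adjusted p = 6.4e-05 by edgeR). Of the sheddases of CX3CL1 and CXCL16, ADAM10 was at 247 to 324 and 279 to 329 CPM with a log2 fold change of 0.13 (adjusted p = 0.0751 by edgeR). ADAM17 fell by 0.24 on the log2 scale (SE 0.08, adjusted p = 0.034 by edgeR), and leaving out replicate 1, 4 or 5 took the adjusted p past the threshold, to 0.063, 0.0632 and 0.0798.

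Of 11 genes for heparan sulfate, the chain to which chemokines bind on cell surfaces, 3 were higher and 1 was lower, against 23.9% and 22.7% of all genes tested, so the number higher is near the share over all genes. The sulfotransferase NDST1 (log2 fold change 0.42, SE 0.04) and the core protein gene GPC1 (0.39, SE 0.05) rose, and the sulfotransferase HS6ST1 fell by 0.83 (SE 0.06), from 95.8 to 118 CPM down to 52.0 to 78.0 CPM. The chain polymerase EXT1 was higher by 0.17 (adjusted p = 0.0319 by edgeR), a call lost in 7 of 13 alternative settings. The syndecans SDC1, SDC2 and SDC4 did not pass, with log2 fold changes of 0.01, -0.06 and -0.05. Of 7 genes for the turnover of inflammatory mRNAs, 1 was higher and 3 were lower, against the same 23.9% and 22.7%. The ribonuclease gene ZC3H12A (regnase-1) rose by a log2 fold change of 0.63 (SE 0.06), while the genes for the RNA-binding proteins ZFP36L2, KHSRP and HNRNPD had log2 fold changes of -0.59, -0.38 and -0.46. Over these receptor and handling lists together 6 of 25 tested genes were higher and 6 lower, near the shares over all genes, and 10 were higher without replicate 3.

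**Figure D5:**
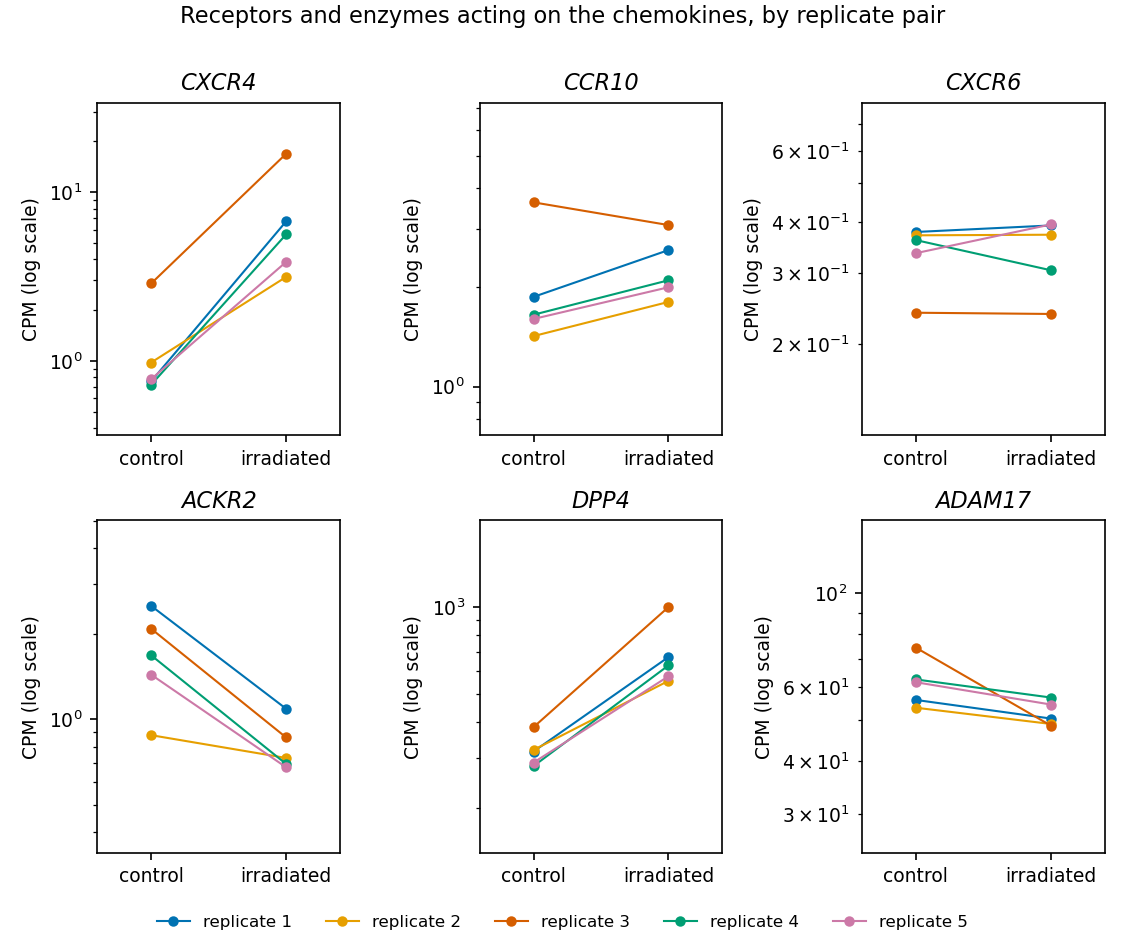
Levels in CPM (log axis, scaled for each gene) of 3 receptors, the scavenger receptor ACKR2, DPP4 and ADAM17 in control and irradiated samples, with lines joining samples of the same replicate number. CXCR4 and DPP4 rise in all 5 pairs, with replicate 3 the highest, ACKR2 and ADAM17 fall in all 5, and CCR10 and CXCR6 move in both directions.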

How the data were processed

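Bulk RNA-seq counts of 5 irradiated and 5 control samples were analysed. Reads had been trimmed with Trim-Galore, aligned to GRCh38 and counted per GENCODE gene by STAR, and the authors deposited these raw counts with no normalisation. The line is RPTEC/TERT1 in the design text, while the line tags of single samples carry rising numbers. The library kit is named differently in the labels and the paper and is not given here. No count fell on any of 17 protein-coding genes covered by exons on the other strand, whereas 9.3% of 10506 such genes free of overlap lacked counts, and the table was treated as unstranded. Symbols were matched for 61369 of 61587 rows, and coordinates and exon overlaps were taken from the GENCODE annotation of GRCh38.

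Genes with at least 200 counts in total, the limit of the study's methods, were tested in R 4.3.3 with edgeR 4.0.16 (TMM, glmQLFit and glmQLFTest) with replicate number as a block, as in the study's model. Benjamini-Hochberg adjustment covered all genes tested, at a threshold of 0.05. The standard error of a fold change was derived from it and the root of F. Members under 200 counts were tested in the same model on genes with at least 1 count and by exact two-sided permutation of CPM. The permutation exchanged all 10 samples and did not use the pairing. Intervals of counts and floors cover counting error only. Samples were paired by number because both groups carry the same numbers and the study put replicate number in its model. Deviations from the group means correlated between same-numbered samples with r of 0.60, 0.23, 0.33, 0.54 and 0.53. The highest r with another number was 0.235 for replicate 2, above its own, 0.494 for replicates 4 and 5, 0.235 for replicate 1 and 0.0679 for replicate 3. These correlations did not decide the pairing, and they do not single out the pair of replicate 2. Replicates of a group differed well beyond sampling noise, with chi-square values per gene from 8.50 to 213, and each library counts as 1 sample. On simulated data with 19006 genes the test recovered 96% of 2-fold, 100% of 4-fold, 92% of 0.5-fold and 84% of 0.25-fold changes, 50 of each. The simulated counts had the same dispersion for every gene, no replicate effect and few changed genes, unlike these data. The recovery therefore checks the code and does not give the power in these data.

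The members and gene lists were chosen with earlier results of these data known. Genes named are the 9 members, genes of the lists that passed, and the 3 nearest profiles of each member changed more than 2-fold. CXCL10, CXCL11, CCR1, CCR3, single markers, MKI67 and genes of the lists that did not pass were named after their values were seen. Alternatives were DESeq2 1.42.0, limma-voom (limma 3.58.1), upper-quartile factors, library size alone, other count filters, a model with no replicate block, and fits that leave out 1 replicate pair, or replicates 1 and 3 together. Other data of the study were not analysed here. Plots were made in Python 3.11.15 (matplotlib 3.10.9), and exact tests with scipy 1.17.1.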

Additional observations from a re-analysis of the deposited data

Results flagged for a closer look

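In 4 of 40 groups of 5 samples, taken over members and called receptor and handling genes, the highest sample lay apart from the others by Dixon's test. Chance alone flags about 2 of 40. CCL20 in control replicate 2 was at 0.0357 CPM (5 counts), with the other controls at 0 to 0.00996 CPM. CXCR4 in control replicate 3 was at 2.88 CPM, with the others at 0.724 to 0.979, and in irradiated replicate 3 it was at 16.9 CPM, with the others at 3.15 to 6.72. DPP4 in irradiated replicate 3 was at 999 CPM, with the others at 554 to 670.0. The cause of these values was not tested.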

How the results depend on the processing

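The numbers of members higher (4), lower (2) and past 2-fold (3 higher, 2 lower) were the same under 12 of 13 alternatives. With genes of at least 1 count, CCL20 entered the test, and 5 members were higher and 4 of them past 2-fold. Each of the 6 tested members kept its direction and its call under all 13. The number of genes changed, 8857, was 7006 without the replicate block, so the pairing moved it by less than 1.5 times, and the members' calls were the same without it. It ran from 6529 to 8652 with each replicate left out in turn, and was 8340 by DESeq2, 8911 by limma-voom and 9502 with library size alone. The number of receptor and handling genes called higher, 6, ran from 5 to 10 with each replicate left out, and the 10 came without replicate 3. The cause was not tested. EXT1, ADAM17 and CCR3 lost their calls under some alternatives and CXCL10 and CXCL11 crossed the threshold, while no result changed direction. CXCL10 passed without the replicate block, with an adjusted p of 0.0112 by edgeR. Depth limits CCL5, CCL7 and CCL20, for which 3 counts are worth up to 0.0448 CPM.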

Other observations

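Among the control samples, the order by CXCL14 from high to low was replicate 1, 5, 4, 2 and 3, and the order by CCL2 was replicate 3, 2, 4, 5 and 1, the reverse. Among the irradiated samples the orders were 2, 1, 5, 4 and 3 for CXCL14 and 2, 4, 5, 3 and 1 for CCL2, which are not the reverse of each other. With 5 samples a group no correlation is given.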
